A study of Arabidopsis thaliana with 18 samples.

Results

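JMT (AT1G19640), ILL6 (AT1G44350), CYP94C1 (AT2G27690), JOX2 (AT5G05600) and JOX4 (AT2G38240) are genes for enzymes that methylate, cleave or oxidize jasmonates. They were chosen by name and function, with earlier results of these data known, and each had 1 probe set among the 22746 tested on the Arabidopsis ATH1 array. The probe sets of ILL6 and CYP94C1 could be named only through gene lists that the study drew from these arrays. Expression was measured in whole flowers of the Columbia ecotype, as stage 13 flowers (in wild type the first open ones) and stage 12 flowers (the largest closed buds). The genotypes were 2 double mutants and wild type. One mutant, arf6-2 arf8-3, lacks a pair of auxin response factors, and the other, myb21-5 myb24-5, carries lesions in a pair of MYB transcription factor genes. Each genotype and stage had 3 arrays, from biological replicates that the labels call A, B and C. The alleles were constitutional, so every organ of the mutant flowers carried them. In myb21-5 a stop codon interrupts the coding sequence, and myb24-5 is a T-DNA insertion. Flowers of arf6-2 arf8-3 arrest as closed buds, and those of myb21-5 myb24-5 also stay closed. For its measurements of flower growth the study staged such buds by their size and place on the stem. It presumes that its stage 13 data hold many indirect effects of the arrest, and it focused on stage 12. All plants grew in days of 16 h light, and flowers were cut 2 to 4 h after subjective dawn. In RNA from whole flowers, fewer cells of a type and less RNA per cell cannot be told apart.

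Jasmonate acts in flowers mainly as its isoleucine conjugate, which lets the receptor COI1 remove JAZ repressors from transcription factors such as MYC2, and flowers that lack it have short stamen filaments, closed anthers and few seeds. The conjugate is removed along several routes. CYP94C1, a cytochrome P-450 enzyme, oxidizes the conjugate towards a carboxylated form, ILL6 is an amidohydrolase that cuts the amino acid off again, and JOX2 and JOX4 are 2-oxoglutarate dioxygenases that hydroxylate free jasmonic acid before it can be conjugated. JMT is the methyltransferase that turns jasmonic acid into its volatile methyl ester. Several of these genes are themselves induced by jasmonate. MYB21 and MYB24 are needed for petal and stamen growth.

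The values were the deposited log2 expression values, and a difference of 1 on this scale is a 2-fold difference. Array medians lay between 7.71 and 7.78. ARF6 read 4.73 to 5.27 in arf6-2 arf8-3 arrays and 9.14 to 9.77 in the other arrays, and ARF8 read 5.73 to 6.41 in arf6-2 arf8-3 arrays and 9.69 to 10.57 in the others. MYB21, whose transcript the myb21-5 allele need not remove, read 4.40 to 6.19 in arf6-2 arf8-3, 10.62 to 11.95 in myb21-5 myb24-5 and 12.31 to 12.47 in wild type. The array labelled myb21-5 myb24-5 stage 13 A went against its label, with ARF6 at 4.75 and MYB21 at 5.05, and its log2 values differed from those of arf6-2 arf8-3 stage 13 A with an SD of 0.121, against 0.236 to 0.481 between arrays of 1 group. On that array JMT read 6.84, ILL6 9.07, CYP94C1 5.50, JOX2 7.40 and JOX4 5.80. It was left out by the rule that defined the gene set, so myb21-5 myb24-5 stage 13 is represented by replicates B and C, and results with it are given where they matter. Flower organ identity and green tissue could not be checked, because none of the 5 and 3 markers listed for them had a named probe set. The 3 nectary markers (CRC, SWEET9 and CWINV4) had one each, and the 1 root marker named of 3 listed stayed between 5.03 and 5.54.

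All 5 genes fell in arf6-2 arf8-3 flowers at both stages, whereas in myb21-5 myb24-5 flowers they parted. At stage 13 all 5 were lower in arf6-2 arf8-3 than in wild type at an adjusted p under 0.05 (limma, Benjamini-Hochberg over all probe sets, the threshold used throughout), a call that 9.3% of all probe sets received. At stage 12 all 5 were again lower, where 6.86% of probe sets were called lower. The median log2 change of the 5 was -1.66 at stage 13 and -2.11 at stage 12, while the median of all probe sets was -0.0015 at stage 13 and 0.01 at stage 12. In myb21-5 myb24-5 at stage 13, ILL6 and JOX2 were higher (2 of 5, with 5.04% of all probe sets called higher) and JMT was lower (1 of 5, with 5.67% called lower). At stage 12 the same 2 genes were higher (1.28% of all probe sets) and JOX4 was lower (2.18% of all probe sets). The comparisons of the mutants share their wild-type arrays. All 5 genes also stand in a list that the study drew from these arrays for stage 12 differences. The stage 12 counts are therefore not independent evidence. Nor are the stage 13 counts, since the genes were chosen with earlier results of these data known. With the array left out above put back, 2 of 5 passed in arf6-2 arf8-3 at stage 13 and 4 of 5 at stage 12. In that fit 1835 of the 22746 probe sets were called lower there at stage 13 and 1134 at stage 12. In myb21-5 myb24-5, 1 of 5 passed at stage 13, where 1230 probe sets were called lower and 912 higher. At stage 12, 0 of 5 passed in myb21-5 myb24-5, where 335 probe sets were called lower and 110 higher. The stage 12 changes themselves were the same, and the shared spread was wider.

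**Figure D1:**
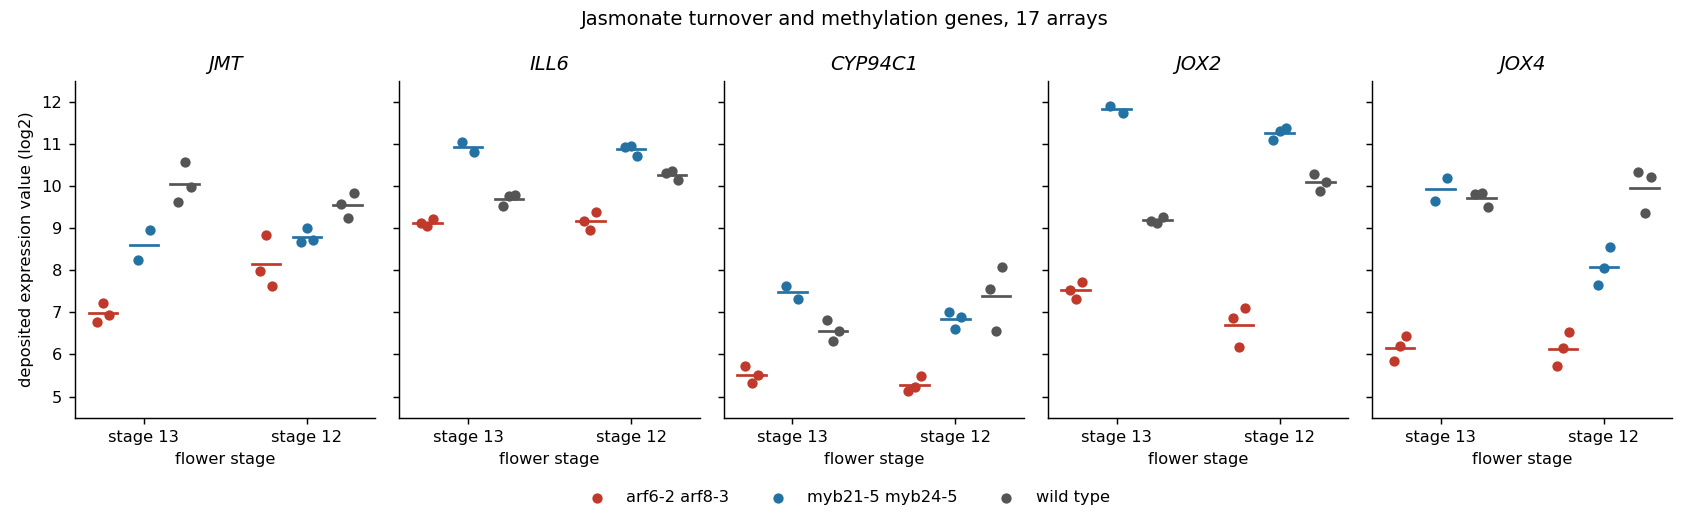
Deposited log2 expression value (vertical axis) of each gene on each of 17 arrays, with stage 13 left of stage 12 and, within a stage, arf6-2 arf8-3 at the left, myb21-5 myb24-5 in the middle and wild type at the right. Points are arrays and bars are group means (n = 3, or 2 for myb21-5 myb24-5 stage 13). JOX2 separates the genotypes completely at both stages, and JOX4 in myb21-5 myb24-5 overlaps the wild-type arrays at stage 13 and lies below them at stage 12.

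**Figure D2:**
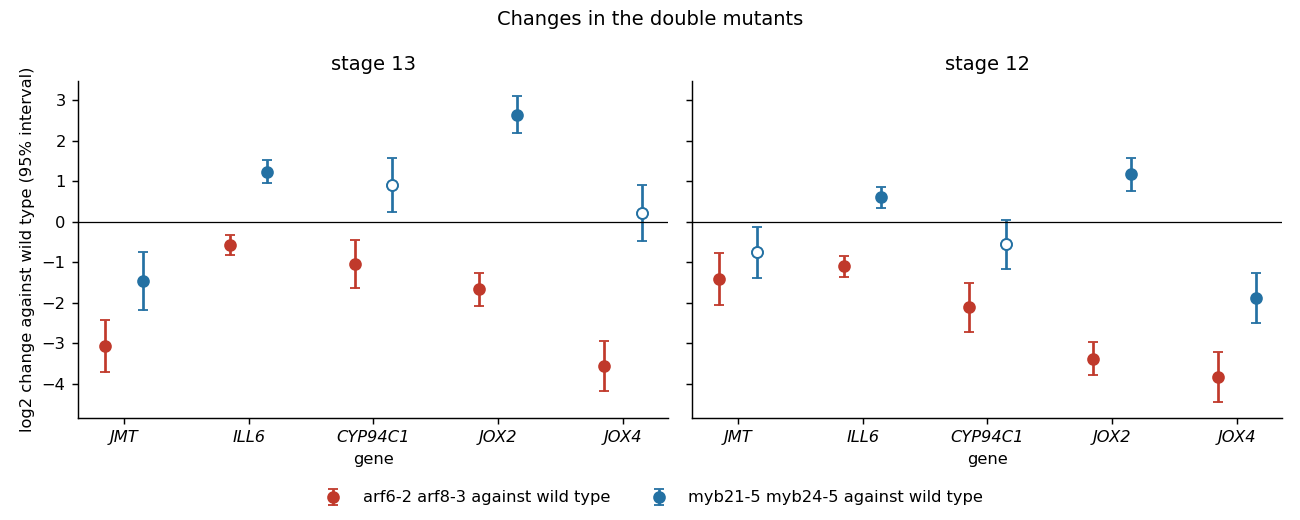
Log2 change of each gene in arf6-2 arf8-3 and in myb21-5 myb24-5 against wild type at stage 13 (left panel) and stage 12 (right panel), with 95% intervals from limma. Filled points passed an adjusted p under 0.05 and open points did not. All 5 changes in arf6-2 arf8-3 lie below 0, and those in myb21-5 myb24-5 run from -1.46 for JMT to 2.64 for JOX2 at stage 13.

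JOX2, a jasmonic acid hydroxylase, spanned the widest range of levels of the 5 genes. Its arrays separated all 6 groups without overlap, though how many of all probe sets do so was not counted. At stage 13 it read 7.54, 7.32 and 7.73 in arf6-2 arf8-3, 11.91 and 11.75 in myb21-5 myb24-5, and 9.18, 9.13 and 9.27 in wild type. At stage 12 JOX2 read 6.87, 6.17 and 7.10 in arf6-2 arf8-3, 11.10, 11.31 and 11.39 in myb21-5 myb24-5, and 10.30, 9.89 and 10.10 in wild type. Every arf6-2 arf8-3 array was thus below every wild-type array of its stage, and every myb21-5 myb24-5 array used was above. In arf6-2 arf8-3 JOX2 fell 3.16-fold at stage 13 (log2 change -1.66 ± 0.19 SE, adjusted p = 1.6e-05) and 10.4-fold at stage 12 (-3.38 ± 0.19, adjusted p = 2.33e-08). In myb21-5 myb24-5 it rose 6.23-fold at stage 13 (2.64 ± 0.21, adjusted p = 1.09e-06) and 2.25-fold at stage 12 (1.17 ± 0.19, adjusted p = 0.00227). Between the mutants the gap was 19.7-fold at stage 13 and 23.5-fold at stage 12, lower in arf6-2 arf8-3, with an adjusted p of 9.73e-09 at stage 13 and 2.5e-09 at stage 12. With the array left out above put back, its value of 7.40 brought the stage 13 change in myb21-5 myb24-5 to 1.16 (adjusted p = 0.463) and that in arf6-2 arf8-3 to an adjusted p of 0.181.

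JOX4, a second enzyme of the same hydroxylase family, behaved differently from JOX2 in myb21-5 myb24-5. At stage 13 it read 5.84, 6.21 and 6.44 in arf6-2 arf8-3, 9.65 and 10.20 in myb21-5 myb24-5, and 9.82, 9.83 and 9.50 in wild type. In stage 12 buds JOX4 read 5.72, 6.15 and 6.53 in arf6-2 arf8-3, 7.64, 8.05 and 8.56 in myb21-5 myb24-5, and 10.33, 9.36 and 10.22 in wild type. The arf6-2 arf8-3 arrays were the lowest at both stages, while the myb21-5 myb24-5 arrays overlapped wild type at stage 13 and lay between the other 2 genotypes at stage 12. JOX4 fell 11.7-fold in arf6-2 arf8-3 at stage 13 (log2 change -3.55 ± 0.29 SE, adjusted p = 5.66e-07) and 14.2-fold at stage 12 (-3.83 ± 0.29, adjusted p = 6.28e-07), the largest changes of the 5 genes in that mutant. In myb21-5 myb24-5 it fell 3.68-fold at stage 12 (-1.88 ± 0.29, adjusted p = 0.00155). At stage 13 its change there was 0.21 ± 0.32 (adjusted p = 0.775), with a 95% interval from -0.48 to 0.91, and the fit with the omitted array gave -1.16 (adjusted p = 0.447). JOX4 was 13.6-fold lower in arf6-2 arf8-3 than in myb21-5 myb24-5 at stage 13 (adjusted p = 2.56e-06) and 3.87-fold lower at stage 12 (adjusted p = 0.000565).

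CYP94C1, the oxidase of the isoleucine conjugate, was lowest in arf6-2 arf8-3 and varied widely among wild-type buds. At stage 13 it read 5.73, 5.32 and 5.51 in arf6-2 arf8-3, 7.63 and 7.32 in myb21-5 myb24-5, and 6.82, 6.31 and 6.56 in wild type. In stage 12 buds CYP94C1 read 5.13, 5.22 and 5.50 in arf6-2 arf8-3, 7.01, 6.61 and 6.89 in myb21-5 myb24-5, and 7.55, 6.56 and 8.07 in wild type. No arf6-2 arf8-3 array overlapped wild type at either stage, whereas myb21-5 myb24-5 lay above wild type at stage 13 and overlapped it at stage 12, where wild-type array B was the lowest of its group. CYP94C1 fell 2.06-fold in arf6-2 arf8-3 at stage 13 (log2 change -1.05 ± 0.28 SE, adjusted p = 0.0149) and 4.33-fold at stage 12 (-2.11 ± 0.28, adjusted p = 0.000125). Its arf6-2 arf8-3 readings lay near those of the root marker on the same arrays (5.03 to 5.54), so the size of these falls is less certain. The stage 13 call was lost without wild-type stage 13 A (-0.92, adjusted p = 0.0653) or without arf6-2 arf8-3 stage 13 B (-0.95, adjusted p = 0.0614). In myb21-5 myb24-5 the change was 0.91 ± 0.31 at stage 13 (adjusted p = 0.0826) and -0.56 ± 0.28 at stage 12 (adjusted p = 0.403), and neither passed the threshold. The stage 13 change passed in a fit of the groups compared alone (0.91, adjusted p = 0.016) and with array quality weights (adjusted p = 0.0226). Without wild-type stage 12 B, the stage 12 change was -0.98 and passed (adjusted p = 0.0189). Against myb21-5 myb24-5, CYP94C1 was 3.88-fold lower in arf6-2 arf8-3 at stage 13 (adjusted p = 0.000706) and 2.94-fold lower at stage 12 (adjusted p = 0.00251).

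ILL6, the amidohydrolase, showed the smallest changes of the 5 genes in arf6-2 arf8-3 and the smallest standard errors. At stage 13 it read 9.12, 9.04 and 9.21 in arf6-2 arf8-3, 11.05 and 10.81 in myb21-5 myb24-5, and 9.54, 9.76 and 9.80 in wild type. At stage 12 it read 9.18, 8.96 and 9.38 in arf6-2 arf8-3, 10.94, 10.97 and 10.73 in myb21-5 myb24-5, and 10.31, 10.36 and 10.15 in wild type. The 3 genotypes did not overlap at either stage, with arf6-2 arf8-3 lowest and myb21-5 myb24-5 highest. ILL6 fell 1.49-fold in arf6-2 arf8-3 at stage 13 (log2 change -0.57 ± 0.12 SE, adjusted p = 0.00288) and 2.15-fold at stage 12 (-1.10 ± 0.12, adjusted p = 2e-05). It rose 2.35-fold in myb21-5 myb24-5 at stage 13 (1.23 ± 0.13, adjusted p = 1.89e-05) and 1.52-fold at stage 12 (0.60 ± 0.12, adjusted p = 0.00932). Leaving out myb21-5 myb24-5 stage 12 B took the stage 12 rise to 0.56 with an adjusted p of 0.0535. With the omitted array put back, the stage 13 change was 0.61 in myb21-5 myb24-5 (adjusted p = 0.34), and the stage 12 fall in arf6-2 arf8-3 no longer passed (-1.10, adjusted p = 0.0564). Its level was 3.49-fold lower in arf6-2 arf8-3 than in myb21-5 myb24-5 at stage 13 (adjusted p = 5.68e-07) and 3.26-fold lower at stage 12 (adjusted p = 4.81e-07).

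JMT, the methyltransferase, was the one gene of the 5 that was lower in both mutants than in wild type at stage 13. At that stage it read 6.78, 7.23 and 6.95 in arf6-2 arf8-3, 8.24 and 8.96 in myb21-5 myb24-5, and 9.62, 10.57 and 9.98 in wild type. At stage 12 it read 7.98, 8.83 and 7.64 in arf6-2 arf8-3, 8.67, 9.01 and 8.72 in myb21-5 myb24-5, and 9.59, 9.24 and 9.85 in wild type. The genotypes did not overlap at stage 13, and at stage 12 both mutants lay below wild type while array B of arf6-2 arf8-3 reached into the range of myb21-5 myb24-5. JMT fell 8.42-fold in arf6-2 arf8-3 at stage 13 (log2 change -3.07 ± 0.30 SE, adjusted p = 3.22e-06) and 2.66-fold at stage 12 (-1.41 ± 0.30, adjusted p = 0.00515). In myb21-5 myb24-5 it fell 2.75-fold at stage 13 (-1.46 ± 0.33, adjusted p = 0.00979), and its stage 12 change of -0.76 ± 0.30 did not pass (adjusted p = 0.231). The stage 13 call in myb21-5 myb24-5 was lost without replicate B of that group, which left 1 array (-1.10, adjusted p = 0.153). In this fit, and in every other fit without an array of myb21-5 myb24-5 stage 13, the lone array was assumed to vary like the other groups, whose spread the test used. It passed with the omitted array (-2.05, adjusted p = 0.00491).

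JMT was also 3.06-fold lower in arf6-2 arf8-3 than in myb21-5 myb24-5 at stage 13 (log2 change -1.61 ± 0.33 SE, adjusted p = 0.00479), a call that was lost without myb21-5 myb24-5 stage 13 C (-1.25, adjusted p = 0.0987). At stage 12 the difference was -0.65 ± 0.30 (adjusted p = 0.242), and it passed without arf6-2 arf8-3 stage 12 B (-0.99, adjusted p = 0.0402). Set directly against each other, arf6-2 arf8-3 was therefore below myb21-5 myb24-5 for all 5 genes at stage 13 (6.24% of all probe sets were called lower) and for 4 of 5 at stage 12 (3.9%). With the omitted array included, none of the 5 passed at stage 13. That fit called 0 of all probe sets in this comparison.

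The levels of the nectary markers moved with the genotype as well. The mean log2 level of the 3 markers per array was 6.55 to 7.11 in arf6-2 arf8-3, 8.74 to 9.07 in myb21-5 myb24-5 and 11.26 to 11.65 in wild type at stage 13. In stage 12 buds the mean was 7.53 to 7.67 in arf6-2 arf8-3, 8.35 to 8.64 in myb21-5 myb24-5 and 10.21 to 10.87 in wild type. Of the 3 markers, 2 were lower and 1 higher in myb21-5 myb24-5 at stage 13. The 2 markers of filament and petal growth (EXPA3 and XTH19) averaged 5.80 to 6.15 in arf6-2 arf8-3, 7.88 to 8.17 in myb21-5 myb24-5 and 10.34 to 10.93 in wild type at stage 13. Of the 2, XTH19 alone was called lower in myb21-5 myb24-5 at that stage (-4.99, adjusted p = 8.42e-08), while EXPA3 changed by -0.27 (adjusted p = 0.599). Group means of JMT had the same genotype order as the mean of each list at both stages. At stage 12 those of JOX4 and CYP94C1 had it too. Single nectary markers did not all share it. CRC was highest in myb21-5 myb24-5, at 10.53 at stage 13 and 9.86 at stage 12, against 9.74 and 9.71 in wild type. SWEET9 at stage 12 read 6.11 in arf6-2 arf8-3 and 6.09 in myb21-5 myb24-5. The study saw very small nectaries in arf6-2 arf8-3 and normal-looking ones in myb21-5 myb24-5. The part of these tissues in the changes was not tested. The 2 tapetum markers named of 4 listed averaged 4.76 to 8.21 in arf6-2 arf8-3 stage 12 arrays, the widest range of any group, against 4.42 to 4.81 in wild type, and their part in the results was not tested either. The 1 pollen marker named of 5 listed, ACT12, was lower in arf6-2 arf8-3 than in wild type at stage 13 (log2 change -1.01, adjusted p = 0.0417) and stage 12 (-1.26, adjusted p = 0.0187), as all 5 genes were. ACT12 was also lower in arf6-2 arf8-3 than in myb21-5 myb24-5 at stage 13 (-1.52, adjusted p = 0.013), and its part in the results was not tested.

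The stage comparison asked whether the genes changed between stage 12 and stage 13 flowers of 1 genotype. Only in wild type did this set closed buds against open flowers, since buds of both double mutants stay closed. In wild type ILL6 and JOX2 were lower at stage 13 than at stage 12 (2 of 5, with 4.54% of all probe sets called lower). ILL6 fell 1.49-fold (log2 change -0.57 ± 0.12 SE, adjusted p = 0.00597) and JOX2 fell 1.87-fold (-0.90 ± 0.19, adjusted p = 0.00658). The other changes were -0.83 ± 0.28 for CYP94C1 (adjusted p = 0.0823), -0.25 ± 0.29 for JOX4 (adjusted p = 0.757) and 0.50 ± 0.30 for JMT (adjusted p = 0.414). The CYP94C1 change passed with the replicate letter as a block (-0.83, adjusted p = 0.0312) and without wild-type stage 12 B (-1.25, adjusted p = 0.00153).

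In the mutants 1 gene each passed between the stages. In arf6-2 arf8-3 JOX2 was 1.76-fold higher at stage 13 than at stage 12 (1 of 5, with 1.39% of all probe sets called higher), by 0.82 ± 0.19 on the log2 scale (adjusted p = 0.0392). This call was lost when any array of that comparison other than arf6-2 arf8-3 stage 12 C was left out (adjusted p from 0.0528 to 0.189). JMT in arf6-2 arf8-3 changed by -1.17 ± 0.30 without overlap of its arrays (adjusted p = 0.0545), and passed with the replicate block (adjusted p = 0.0229) and without arf6-2 arf8-3 stage 12 C (-1.42, adjusted p = 0.0121). The other changes in arf6-2 arf8-3 were 0.24 ± 0.28 for CYP94C1 (adjusted p = 0.78), -0.04 ± 0.12 for ILL6 (adjusted p = 0.923) and 0.03 ± 0.29 for JOX4 (adjusted p = 0.984). In myb21-5 myb24-5 JOX4 was 3.58-fold higher at stage 13 (1 of 5, with 2.56% called higher), by 1.84 ± 0.32 (adjusted p = 0.00736). Without replicate C at stage 13 that value was 1.57 (adjusted p = 0.134). JOX2 in myb21-5 myb24-5 changed by 0.56 ± 0.21 (adjusted p = 0.162), CYP94C1 by 0.64 ± 0.31 (adjusted p = 0.286), ILL6 by 0.05 ± 0.13 (adjusted p = 0.855) and JMT by -0.20 ± 0.33 (adjusted p = 0.78).

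**Figure D3:**
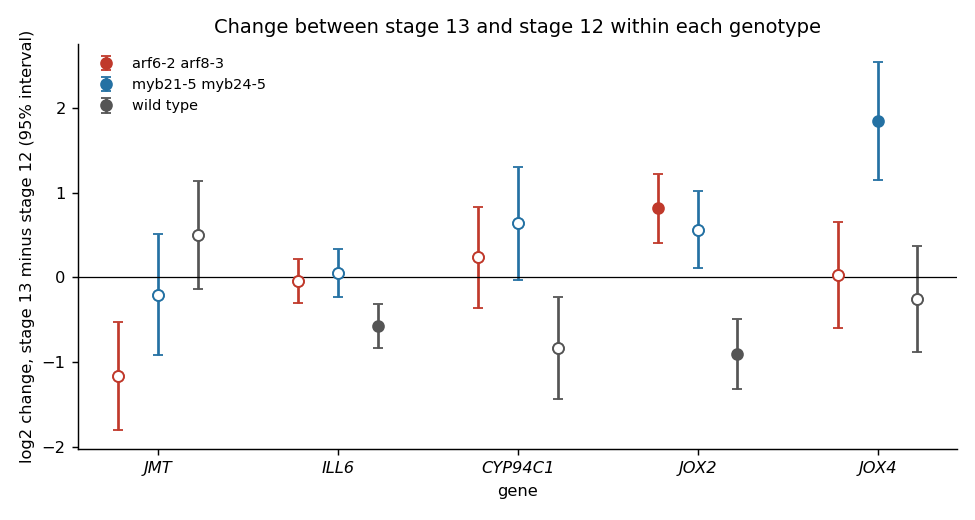
Log2 change at stage 13 against stage 12 for each gene within arf6-2 arf8-3, within myb21-5 myb24-5 and within wild type, with 95% intervals from limma. Filled points passed an adjusted p under 0.05. JOX2 lies above 0 in both mutants and below 0 in wild type, and JOX4 stands at 1.84 in myb21-5 myb24-5.

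Whether a stage change differed between genotypes was tested as an interaction. For JOX2 the stage change was higher in arf6-2 arf8-3 than in wild type by 1.72 ± 0.27 on the log2 scale (adjusted p = 0.00399), the 1 gene of 5 past the threshold where 0.651% of all probe sets were called higher. For JMT the difference between the stage changes was -1.66 ± 0.42, which missed the threshold (adjusted p = 0.0626), and it passed without arf6-2 arf8-3 stage 12 C (-1.92, adjusted p = 0.0254) or wild-type stage 13 A (-1.88, adjusted p = 0.0391). For CYP94C1 it was 1.07 ± 0.40 (adjusted p = 0.258), and it passed without wild-type stage 12 B (1.49, adjusted p = 0.0115). In myb21-5 myb24-5 JOX2 and JOX4 passed (2 of 5, with 1.4% of all probe sets called higher), at 1.47 ± 0.29 for JOX2 (adjusted p = 0.0151) and 2.09 ± 0.44 for JOX4 (adjusted p = 0.0213). The CYP94C1 difference in myb21-5 myb24-5 was 1.47 ± 0.42 (adjusted p = 0.0857) and also passed without wild-type stage 12 B (1.89, adjusted p = 0.00367). The JOX2 call was lost without myb21-5 myb24-5 stage 13 B (1.38, adjusted p = 0.0784) or C (1.55, adjusted p = 0.0581). The JOX4 call was lost without any one of 4 arrays, namely wild-type stage 12 A (1.91, adjusted p = 0.0518), wild-type stage 13 C (1.98, adjusted p = 0.0513), myb21-5 myb24-5 stage 12 B (2.08, adjusted p = 0.0515) and myb21-5 myb24-5 stage 13 C (1.82, adjusted p = 0.144). Both were lost with the omitted array put back, which gave -0.0077 for JOX2 (adjusted p = 0.999) and 0.72 for JOX4 (adjusted p = 0.904). The JOX2 difference in arf6-2 arf8-3 was lost in that fit too (1.72, adjusted p = 0.766).

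Ranked by group mean, the genes did not share 1 order. JOX2 and ILL6 ran, from high to low, myb21-5 myb24-5 stage 13, myb21-5 myb24-5 stage 12, wild type stage 12, wild type stage 13 and then arf6-2 arf8-3. The 2 myb21-5 myb24-5 groups of ILL6 overlapped, as did its 2 arf6-2 arf8-3 groups, whereas no neighbours overlapped for JOX2. CYP94C1 was highest in myb21-5 myb24-5 stage 13 (7.47 ± 0.22, SD, n = 2) and its 4 highest groups overlapped each with the next. JOX4 was highest in wild type stage 12 (9.97 ± 0.53, n = 3), which overlapped myb21-5 myb24-5 stage 13 (9.93 ± 0.38, n = 2). JMT was highest in wild type stage 13 (10.06 ± 0.48, n = 3), and its lowest group, arf6-2 arf8-3 stage 13 (6.99 ± 0.23, n = 3), stood apart from the rest.

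The other jasmonate turnover genes were taken from a list of 21, of which 6 had a probe set of their own. JOX3, another member of the hydroxylase family, was lower in arf6-2 arf8-3 at both stages and higher in myb21-5 myb24-5 at both, as JOX2 was. JOX3 ranged from 5.49 to 6.04 in arf6-2 arf8-3, from 10.13 to 10.16 in myb21-5 myb24-5 and from 7.06 to 7.23 in wild type at stage 13. Its log2 change at stage 13 was -1.43 ± 0.15 in arf6-2 arf8-3 (adjusted p = 7.24e-06) and 2.97 ± 0.17 in myb21-5 myb24-5 (adjusted p = 3.39e-08). At stage 12 the change was -1.73 in arf6-2 arf8-3 (adjusted p = 2.39e-06) and 1.18 in myb21-5 myb24-5 (adjusted p = 0.000301). The size of the falls of JOX3 is less certain, since its arf6-2 arf8-3 readings lay near those of the root marker (5.03 to 5.54). JOX1 passed only in myb21-5 myb24-5 at stage 13, at 1.28 ± 0.15 (adjusted p = 3.88e-05). In wild type JOX1 read 5.12 to 5.76, also near the root marker, so a fall in arf6-2 arf8-3 could hardly have been seen. Of the 4 JOX genes, JOX4 was thus the one that was lower in myb21-5 myb24-5 at stage 12, where JOX2 and JOX3 were higher.

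ILR1, an amidohydrolase related to ILL6, was lower in arf6-2 arf8-3 at stage 12 (log2 change -0.52 ± 0.16, adjusted p = 0.0441), and higher in myb21-5 myb24-5 at stage 13 by 1.35 ± 0.18 (adjusted p = 0.000125). ST2A, which sulfates hydroxyjasmonate, was lower in arf6-2 arf8-3 at stage 13 (-1.56 ± 0.26, adjusted p = 0.000526) and stage 12 (-1.40 ± 0.26, adjusted p = 0.00225), and higher in myb21-5 myb24-5 at stage 13 (1.46 ± 0.29, adjusted p = 0.00411). BSMT1, a carboxyl methyltransferase of benzoic and salicylic acid, went the other way from JMT in myb21-5 myb24-5, with a rise of 5.63 ± 0.46 at stage 13 (adjusted p = 1.13e-06) and 2.39 ± 0.41 at stage 12 (adjusted p = 0.00326). MES9, an esterase that removes such methyl groups, rose by 2.60 ± 0.46 at stage 13 (adjusted p = 0.00163) and 1.62 ± 0.41 at stage 12 (adjusted p = 0.044). In all, 2 of the 6 were lower in arf6-2 arf8-3 at stage 13 and 3 at stage 12, and 6 were higher in myb21-5 myb24-5 at stage 13 and 3 at stage 12. The shares of all probe sets were 9.3% and 6.86% called lower in arf6-2 arf8-3 at stages 13 and 12, and 5.04% and 1.28% called higher in myb21-5 myb24-5. ILR1, ST2A and MES9 were named only through the study's lists from these arrays, so their calls are not independent evidence. JMT and JOX4 were the only genes among these 11 that were called lower in myb21-5 myb24-5 at either stage. ILL6 and CYP94C1 were also named only through the study's lists. Those lists include genes picked for rising in myb21-5 myb24-5 buds while falling in arf6-2 arf8-3 buds at stage 12. Such a choice can leave out genes that fall in myb21-5 myb24-5, and the other listed turnover genes were not seen. Whether JMT and JOX4 are exceptions among turnover genes therefore cannot be decided here.

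**Figure D4:**
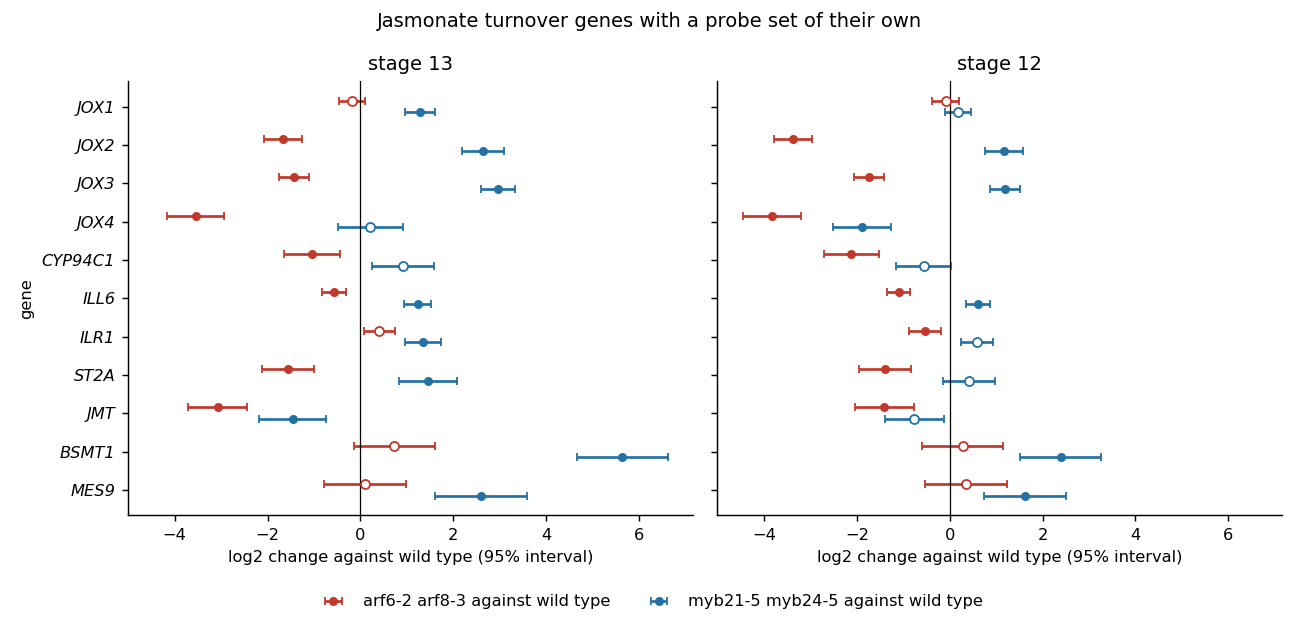
Log2 change (horizontal axis, 95% intervals from limma) of the 5 genes and the 6 other turnover genes with a probe set of their own, in arf6-2 arf8-3 and in myb21-5 myb24-5 against wild type, at stage 13 (left panel) and stage 12 (right panel). Filled points passed an adjusted p under 0.05. BSMT1 reaches 5.63 in myb21-5 myb24-5 at stage 13, where JMT is at -1.46.

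The synthesis and signalling genes upstream and downstream of the 5 were counted in the same way. Of 18 listed jasmonate synthesis genes 7 had a probe set of their own. In arf6-2 arf8-3, 3 of the 7 were lower at stage 13 and 6 at stage 12, and in myb21-5 myb24-5, 6 were higher and 1 lower at stage 13 and 5 higher and 1 lower at stage 12. LOX4, a lipoxygenase, had the largest change of them, at 3.47 ± 0.17 in myb21-5 myb24-5 at stage 13 (adjusted p = 8.17e-09). Of 17 listed signalling genes 12 were measured, of which 7 were lower in arf6-2 arf8-3 at stage 13 and 10 at stage 12, and 8 were higher in myb21-5 myb24-5 at stage 13 and 6 at stage 12. JAZ10, a repressor, had the largest change of these, at -4.70 ± 0.19 in arf6-2 arf8-3 at stage 13 (adjusted p = 3.28e-10). Only 2 of the 7 synthesis genes (AIM1 and OPCL1) and 2 of the 12 signalling genes (MYC3 and MYC4) were named through the platform annotation. The others were named only through the study's own gene lists, which were drawn from these arrays for stage 12 differences. Their counts are therefore not independent evidence. AIM1 and OPCL1 were lower in arf6-2 arf8-3 at stage 12, whereas MYC3 and MYC4 were not called there at either stage. Against these counts, 9.3% of all probe sets were called lower in arf6-2 arf8-3 at stage 13 and 6.86% at stage 12, and in myb21-5 myb24-5 5.04% were called higher and 5.67% lower at stage 13, and 1.28% higher and 2.18% lower at stage 12.

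The probe sets with the most similar pattern were found from the 6 group means, each centred on its own mean, as the root-mean-square difference over the 6 groups among 14009 named probe sets. Closest to ILL6 were AOS (0.0965), OPR3 (0.106) and FAF4 (0.109), of which AOS and OPR3 encode enzymes of jasmonate synthesis. Closest to JOX2 were 4CL8 (0.33), the JAZ repressor gene JAZ7 (0.387) and AT1G06620 (0.485). JAZ7 and the 3 probe sets closest to ILL6 were named only through the study's lists from these arrays. Such matches are not independent evidence, and the 8220 unnamed probe sets were not searched. For JMT they were GLC (0.219), AT5G03120 (0.228) and AT1G12080 (0.234), for CYP94C1 AT5G11400 (0.202), AT2G32430 (0.218) and AT4G25260 (0.225), and for JOX4 AT1G05450 (0.371), AT4G11290 (0.373) and AT5G48900 (0.419). No one of the 5 genes was among the 3 nearest of another. Within the set ILL6 and CYP94C1 were the closest pair (0.404) and JMT and JOX2 the farthest (1.66), while JOX2 and JOX4 differed by 1.22.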

How the data were processed

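The deposited table held log2 expression values for 22810 probe sets on 18 ATH1 arrays. Per the submitters' processing notes and the study's methods, the authors used MAS5 software for washing, scanning and basic analysis, and RMA in GeneSpring for background correction and normalization. The values had the scale of RMA log2 values and were used as deposited. Control probe sets (64) were left out and no low values were removed, so all 5 genes were tested. JMT, JOX2 and JOX4 were named through the platform annotation, and ILL6 and CYP94C1 only through the study's own gene lists. Of the probe sets, 13498 had 1 gene in the platform annotation, 488 had several, 512 were named only through those lists and 8220 stayed unnamed.

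A model with 6 group means was fitted to 17 arrays with limma 3.58.1 in R 4.3.3, with empirical Bayes moderation and Benjamini-Hochberg adjustment over the 22746 probe sets in each of 11 comparisons. An adjusted p under 0.05 was called at any fold. The study's methods used a t-test with a 2-fold limit, which was run as an alternative. The number of arrays limits the precision. Each p-value sets a difference of group means against the moderated spread between biological replicates, pooled over the 6 groups. The main fit had no term for the replicate letter. For its expression work the study isolated RNA with Trizol reagent or RNeasy kits, and does not say which was used for the arrays. Named genes were the 5 genes, the mutated genes, every other turnover gene with its own probe set that passed in a mutant, up to 3 genes with the largest change from other lists, and the 3 most similar patterns per gene. The genes and lists were chosen with earlier results of these data known. The script was tested on simulated data.

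The replicate letters paired the samples by the correlation of deviations from group means: all 3 pairs were above 0.1 in arf6-2 arf8-3 against myb21-5 myb24-5 at stage 12 (0.43 to 0.68), in arf6-2 arf8-3 against wild type at stage 13 (0.23 to 0.55), in myb21-5 myb24-5 against wild type at stage 12 (0.23 to 0.69), and between stages in arf6-2 arf8-3 (0.33 to 0.74) and wild type (0.35 to 0.66). They did not in arf6-2 arf8-3 against wild type at stage 12 (lowest -0.02), and comparisons with myb21-5 myb24-5 stage 13 had 2 pairs.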

Additional observations from a re-analysis of the deposited data

Results flagged for a closer look

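The stage change of JOX2, at stage 13 against stage 12, differed between genotypes by a test of the difference itself, with 1.72 ± 0.27 (SE, log2) for arf6-2 arf8-3 minus wild type (limma, adjusted p = 0.00399) and 1.47 ± 0.29 for myb21-5 myb24-5 minus wild type (adjusted p = 0.0151). The stage change of JOX4 differed in the same way in myb21-5 myb24-5, by 2.09 ± 0.44 against wild type (adjusted p = 0.0213). Both comparisons share the wild-type arrays, and the values for myb21-5 myb24-5 rest on 2 arrays at stage 13.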

How the results depend on the processing

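Of 640 values of single genes under 12 processing alternatives, 566 kept their direction and their side of the threshold, 57 lost the call, 12 gained it and 5 changed sign. No call changed with an intensity trend and robust variances, without probe sets of low mean, with quantile normalization or with median centring. The methods' t-tests gave no interaction values. With all 18 arrays the number of the 5 genes past the threshold was 2 for arf6-2 arf8-3 against wild type at stage 13 and 4 at stage 12, 1 for myb21-5 myb24-5 against wild type at stage 13 and 0 at stage 12, 0 for arf6-2 arf8-3 against myb21-5 myb24-5 at stage 13 and 2 at stage 12, and 0 for each stage comparison and interaction. The sign changed for JOX4 in myb21-5 myb24-5 against wild type at stage 13 (-1.16), for ILL6 (-0.56), CYP94C1 (-0.021) and JOX2 (-0.91) between stages in myb21-5 myb24-5, and for the JOX2 interaction in that mutant (-0.0077). That array alone was added, and it carried values near those of arf6-2 arf8-3. Of the 22746 probe sets, the fit of all 18 arrays called 355 lower in arf6-2 arf8-3 than in myb21-5 myb24-5 at stage 12. At stage 13 it called 0. The methods' t-test with Benjamini-Hochberg adjustment left 1 gene for arf6-2 arf8-3 against wild type at stage 12, 0 for myb21-5 myb24-5 at stage 12 and 1 at stage 13, 1 for arf6-2 arf8-3 against myb21-5 myb24-5 at each stage, and 0 for each stage comparison, and unadjusted with a 2-fold limit it left 0 between stages in wild type. A 2-fold limit left 0 between stages in wild type and in arf6-2 arf8-3, an adjusted p under 0.01 left 0 between stages in arf6-2 arf8-3 and 0 for the myb21-5 myb24-5 interaction, and a fit of the groups compared left 0 between stages in arf6-2 arf8-3. The replicate block gave 2 genes between stages in arf6-2 arf8-3 and 2 for its interaction, where JMT passed (adjusted p = 0.0301), as did array quality weights (2 and 2). The block also raised the calls over all probe sets. Between stages in arf6-2 arf8-3 it called 1304 lower and 1242 higher, against 258 and 317 in the main fit. For the interaction it called 725 lower and 506 higher, against 294 and 148. With the block CYP94C1 also passed in myb21-5 myb24-5 at stage 13 (0.97, adjusted p = 0.027) and in its interaction (1.53, adjusted p = 0.0272), and beside these and the values given above the block changed no call. The causes of these changes were not tested.

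Leaving out each array in turn kept 338 of 370 values, while 17 lost the call, 8 gained it and 7 changed sign. The number of genes past the threshold against wild type was 4 to 5 at stage 13 and 5 at stage 12 in arf6-2 arf8-3, and 2 to 3 at stage 13 and 2 to 4 at stage 12 in myb21-5 myb24-5. Between the mutants it was 4 to 5 at both stages. Between stages it was 0 to 2 in arf6-2 arf8-3, 0 to 1 in myb21-5 myb24-5 and 2 to 3 in wild type, and for the interactions 1 to 2 in arf6-2 arf8-3 and 0 to 3 in myb21-5 myb24-5. Changes of sign were among small values. Over the arrays left out, JOX4 in myb21-5 myb24-5 against wild type at stage 13 ran from -0.059 (without myb21-5 myb24-5 stage 13 C) to 0.48. Between stages in arf6-2 arf8-3, ILL6 ran from -0.15 to 0.061 and JOX4 from -0.18 to 0.23, and between stages in myb21-5 myb24-5, JMT ran from -0.56 to 0.15 and ILL6 from -0.066 to 0.18.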
